A study of Mus musculus with 9 samples.

Results

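RNA-seq of mouse bone marrow derived macrophages (BMDMs) was compared between 3 libraries of cells treated with CO-CM and 3 libraries of untreated cells (UNX), chosen by the treatment and replicate given in the sample titles, out of 9 libraries in the series. CO-CM is culture medium conditioned by adventitial fibroblasts, the cells of the outer wall of the pulmonary artery, grown from control calves. The remaining 3 libraries were treated with PH-CM, medium from fibroblasts of calves with pulmonary hypertension, and are used here only to show where the level under CO-CM differs. All cells came from male wild-type C57BL/6 mice, C57bl6/J in the study's methods, and were grown in DMEM with 10% FBS and CSF1 at 50 ng/ml, and the conditioned media received 10% FBS before use. The labels give the time in conditioned medium as 16 h in one place and as 24 h in another, and the study's methods give yet another time. Each kind of conditioned medium was a pool of several fibroblast populations, so the 3 replicates of a group do not stand for 3 calves and p-values cover the spread between macrophage cultures alone. Whether the conditioned media contained CSF1 is not given in the sources used here, so fibroblast products, used medium and any difference in CSF1 cannot be told apart.

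BMDMs are macrophages raised from marrow precursors by CSF1, the growth factor that keeps them alive and makes them divide. CSF1 signals through its receptor to the ERK and PI3K pathways, which induce cyclin D1 and MYC, let E2F factors switch on the DNA replication genes, and drive ribosome building and lipid synthesis. Macrophages are known for their lysosomes and surface receptors, with which they take up and break down particles and lipids. In the outer artery wall macrophages lie among adventitial fibroblasts, and the comparison is between naive macrophages with and without medium conditioned by control fibroblasts.

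Counted reads numbered between 62017933 and 84314201 in the UNX libraries and between 68317274 and 73049365 in the CO-CM libraries. Levels are given as CPM, read counts scaled to a common library size by TMM, for replicates 1, 2 and 3 in that order or as the mean ± SD of 3 libraries, and log2 fold changes are given ± SE. Unless stated otherwise, FDR values come from the quasi-likelihood test of edgeR without a block for the replicate number. They were adjusted by Benjamini-Hochberg over the 11950 genes tested. Calls needed both a fold change of 1.2 or more and an FDR no higher than 0.05. By this rule 3351 genes (28%) were called higher under CO-CM and 3455 (28.9%) were called lower. With a fold change of at least 2, the calls were 717 higher (6%) and 938 lower (7.85%), and 127 genes rose and 308 fell by more than 4-fold. For 8609 genes (72%) the 3 libraries of one group all lay above the 3 of the other, and the median log2 fold change of all genes tested was 0.00. The counts of list members below are to be read against these shares.

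**Figure D1:**
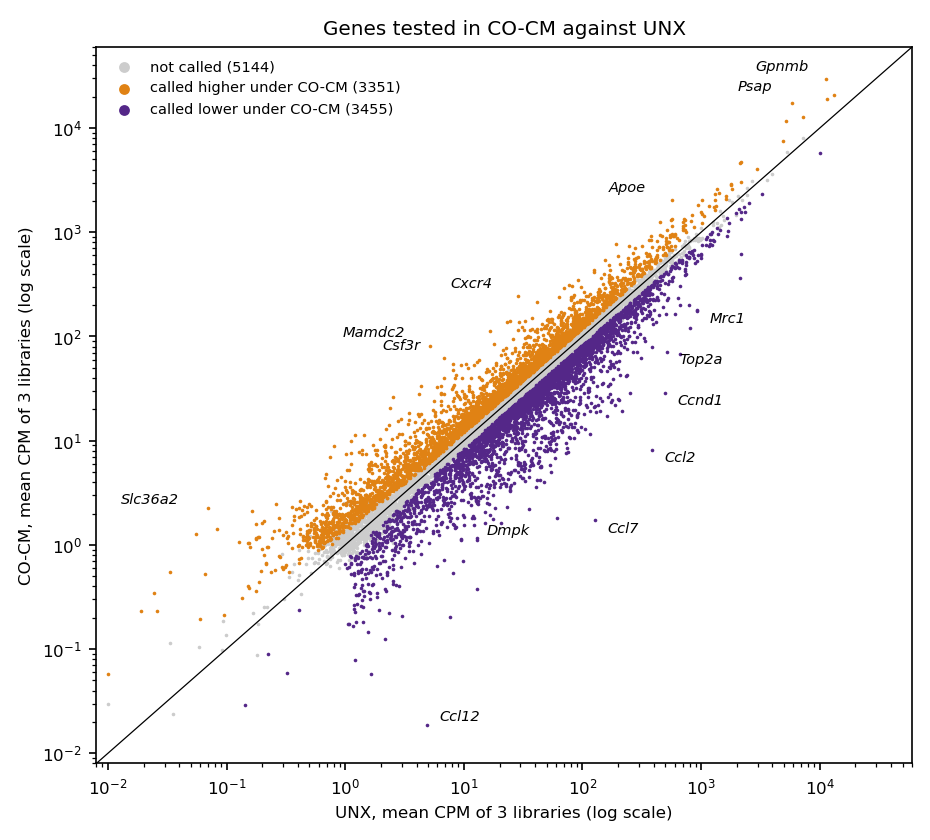
Mean CPM of each of the 11950 genes tested in the 3 UNX libraries (x axis) and the 3 CO-CM libraries (y axis), both on log scales, with means below 0.01 drawn at 0.01. The line marks equal levels, orange points are the 3351 genes called higher and purple points the 3455 called lower, and Ccl12, Ccl7, Ccl2 and Ccnd1 lie far below the line.

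The libraries carried the markers of macrophages. All 11 macrophage markers passed the filter, with a summed level between 12470 and 13260 CPM in UNX and between 19830 and 20810 CPM in CO-CM, and Csf1r, the CSF1 receptor, stood at 1744, 1521 and 1579 CPM in UNX and 1931, 2322 and 2018 CPM in CO-CM (log2 fold change 0.37 ± 0.09, FDR 0.00311). The T cell markers Cd3e and Cd3g, the NK cell markers Ncr1, Gzma and Prf1 and the neutrophil marker Ly6g had no read in the 6 libraries, and all B cell, dendritic cell, erythroid, mast cell, megakaryocyte and epithelial markers were below 1 CPM. The tested members of the T cell, neutrophil and osteoclast lists were called higher under CO-CM. S100a8 and Acp5 passed the filter only through libraries with conditioned medium, where they were higher, and Dcstamp, higher in UNX, did not pass. The direction of the tested members was thus set in part by the filter. Of the 6 T cell markers only Cd4 was tested, and it rose from 1.39, 3.31 and 1.91 to 7.28, 7.86 and 6.26 CPM (log2 fold change 1.69 ± 0.25, FDR 0.000146). Of the 8 neutrophil markers, 2 were tested and both rose, Mmp8 from 4.32, 4.69 and 5.52 to 13.4, 12.8 and 12.6 CPM (log2 fold change 1.41 ± 0.12, FDR 2.51e-06) and S100a8 from 0.957, 0.901 and 1.001 to 2.46, 2.21 and 2.81 CPM (log2 fold change 1.39 ± 0.17, FDR 3.23e-05). The 8 summed to between 6.22 and 8.44 CPM in UNX and to between 16.25 and 17.04 CPM in CO-CM, mostly Mmp8. The other 6 stayed below 1 CPM in the 6 libraries. Among them, S100a9 had 0.3703, 0.53 and 0.9546 CPM in UNX and 0.3803, 0.5088 and 0.7028 CPM in CO-CM. Ngp had 0.4321, 0.6493 and 0.8032 CPM in UNX and 0.2925, 0.7184 and 0.7872 CPM in CO-CM. Of the 5 osteoclast markers, 2 were tested and both rose, Ctsk from 13.3, 22.99 and 24.6 to 32.7, 45.3 and 50.1 CPM (log2 fold change 1.07 ± 0.23, FDR 0.00175) and Acp5 from 0.8795, 0.967 and 1.26 to 2.004, 3.38 and 3.02 CPM (log2 fold change 1.43 ± 0.29, FDR 0.00143). Calcr of that list had no read and Dcstamp, which was not tested, had 0.9104, 1.603 and 1.85 CPM in UNX and 0.1901, 0.838 and 0.731 CPM in CO-CM. The 8 fibroblast markers summed to between 197.3 and 249.4 CPM in UNX and to between 266.6 and 318.1 CPM in CO-CM, mostly Col1a1 and Col1a2, while Lum and Thy1 stayed below 0.1 CPM. Endothelial Tek had at most 2 counts in each of the 6 libraries and Cdh5 and Kdr were called lower, while Vwf of the same list rose from 98.3, 148 and 128 to 400.3, 464 and 391 CPM. The part of these marker levels in the results was not tested.

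The cell cycle genes fell together under CO-CM. All 47 genes of the DNA replication list were called lower, with a median log2 fold change of -2.24, and 40 of 41 mitosis genes were called lower, with a median of -2.37. These counts were the same under each of 3 other scalings, with the replicate block and with each UNX or CO-CM library left out. The 47 replication genes summed to 4968 ± 175 CPM in UNX and 1284 ± 126 CPM in CO-CM, and the 41 mitosis genes to 5239 ± 234 and 1059 ± 112 CPM. In bulk RNA, fewer cells of a kind and less RNA per cell cannot be told apart, so a smaller share of dividing cells and a lower level in each cell would give the same values.

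At the entry into the cycle, Ccnd1 (cyclin D1, chr7:144929931-144939925 in GRCm38), which carries growth factor signals to CDK4 and CDK6, had 645, 397 and 458 CPM in UNX and 23.4, 25.6 and 37.5 CPM in CO-CM. Every CO-CM library lay far below every UNX library (log2 fold change -4.11 ± 0.23, FDR 1.3e-07), and the annotation places Oraov1 over the same bases. Myc, the transcription factor that drives growth and biosynthesis, fell from 106, 82.6 and 85.00 to 9.93, 11.7 and 14.8 CPM (log2 fold change -2.91 ± 0.14, FDR 5.4e-08). Ccne2, an E cyclin that starts replication with CDK2, fell from 56.3, 52.7 and 52.6 to 4.42, 4.16 and 6.58 CPM (log2 fold change -3.41 ± 0.19, FDR 1.5e-07). Of the 31 genes of the G1 list, 22 were called lower and 5 higher. The inhibitor Cdkn1b (p27), which holds CDK2 in resting cells, rose from 31.1, 36.6 and 31.1 to 60.7, 85.9 and 64.6 CPM (log2 fold change 1.09 ± 0.13, FDR 2.6e-05), and Cdkn1c (p57) rose from 0.741, 1.59 and 1.29 to 3.13, 4.16 and 4.61 CPM (log2 fold change 1.70 ± 0.25, FDR 0.000125). The other CDK inhibitors tested went the other way, with Cdkn1a (p21) at 293 CPM in UNX and 123 CPM in CO-CM (log2 fold change -1.26 ± 0.09, FDR 7.09e-07), and Cdkn2b, Cdkn2c and Cdkn2d were also called lower. Btg1, Btg2 and Ccng2, genes linked to growth arrest, were the other 3 members called higher. The 2 groups did not overlap for any of the genes named here.

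Among the replication factors, Mcm5, a subunit of the MCM helicase that opens the DNA, fell from 263, 236 and 255 to 23.9, 24.1 and 37.9 CPM (log2 fold change -3.13 ± 0.18, FDR 1.54e-07). Cdc6, which loads that helicase on origins, fell from 45.00, 36.9 and 39.1 to 3.26, 3.47 and 4.16 CPM (log2 fold change -3.47 ± 0.14, FDR 1.77e-08). Rrm2, the regulated subunit of the enzyme that makes deoxynucleotides, fell from 198, 176 and 186 to 18.5, 18.96 and 28.2 CPM (log2 fold change -3.09 ± 0.20, FDR 3.12e-07), and Uhrf1, which keeps DNA methylation through replication, from 225, 202 and 216 to 14.8, 17.5 and 25.2 CPM (log2 fold change -3.48 ± 0.18, FDR 6.85e-08). Pcna, the clamp that holds DNA polymerase, had a smaller change, from 512, 514 and 555 to 209, 226 and 265 CPM (log2 fold change -1.18 ± 0.08, FDR 6.61e-07). The changes within the list ranged from -3.65 for Ung, which removes uracil from DNA, to -0.48 for Rfc2, a subunit of the clamp loader.

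Of the mitosis genes, Top2a, which untangles sister chromosomes, fell from 551, 498 and 490.0 to 60.1, 69.6 and 84.5 CPM (log2 fold change -2.85 ± 0.11, FDR 1.56e-08). Mki67, the Ki-67 marker of cycling cells, fell from 1018, 904 and 865 to 173, 174 and 182 CPM (log2 fold change -2.40 ± 0.08, FDR 6.79e-09), and Cdk1, the kinase that starts mitosis, from 127, 122 and 123 to 17.04, 20.4 and 25.5 CPM (log2 fold change -2.56 ± 0.12, FDR 3.8e-08). The members apart from the rest were Cenpa, the histone of centromeres, at 73.2 CPM in UNX and 48.2 CPM in CO-CM (log2 fold change -0.60 ± 0.17, FDR 0.00784), and Pttg1 (securin), the only member not called, at 10.8, 11.01 and 11.7 CPM in UNX and 11.6, 11.9 and 11.7 CPM in CO-CM.

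Stretches of the promoters of such genes are shown because the lists that moved together differ in the short motifs that their promoters hold. The windows are those of RefSeq on GRCm38.p6, 250 bases before to 50 bases after each start site, and 9147 of the 11948 gene symbols tested had one or more. Motifs were searched as exact letters on both strands. The E2F motif was TTTGGCGC or TTTCGCGC, and these forms overlap where they face each other. The cell cycle homology region (CHR), through which mitosis genes are controlled, was TTTGAA, and the CCAAT box was CCAAT. The CLEAR element of lysosomal genes was CACGTGAC, which contains the E-box CACGTG. The core of the interferon-stimulated response element (ISRE) was TTTCNNTTT, and the core of the sterol response element (SRE) was CACCCCAC. The stretches below are written in the direction of the gene and end at or before the start site, with each copy of the motif in capitals. The E2F motif is marked in the promoters of a helicase subunit at each of Mcm5 and Mcm6 and of the DNA polymerase subunit Pola1, and the CHR in those of Cdk1, Top2a and the spindle motor Kif11.
Mcm5, chr8:75109324-75109403, + strand: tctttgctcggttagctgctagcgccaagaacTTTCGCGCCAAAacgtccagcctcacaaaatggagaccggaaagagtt
Mcm6, chr1:128359709-128359788, - strand: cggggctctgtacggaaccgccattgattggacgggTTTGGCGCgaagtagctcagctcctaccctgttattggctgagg
Pola1, chrX:93632250-93632329, - strand: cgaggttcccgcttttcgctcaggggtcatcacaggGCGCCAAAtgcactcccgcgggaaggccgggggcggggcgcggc
Cdk1, chr10:69352913-69352963, - strand: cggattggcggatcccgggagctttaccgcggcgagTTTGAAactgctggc
Top2a, chr11:99024190-99024248, - strand: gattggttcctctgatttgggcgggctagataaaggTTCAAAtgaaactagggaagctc
Kif11, chr19:37376327-37376381, + strand: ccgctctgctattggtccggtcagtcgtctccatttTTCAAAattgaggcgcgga

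The E2F motif was in the windows of 13 of 38 replication genes with a window (34.2%), of 2 of 33 mitosis genes (6.06%) and of 167 of the 9147 genes tested with a window (1.83%). The CHR was in 25 of 33 mitosis genes (75.8%), in 6 of 38 replication genes (15.8%) and in 14.4% of all genes tested. The CCAAT box was in 23 of 38 replication genes (60.5%), 25 of 33 mitosis genes (75.8%) and 43.4% of all. A match is a description of these letters in these windows, and binding of any factor was not measured.

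**Figure D2:**
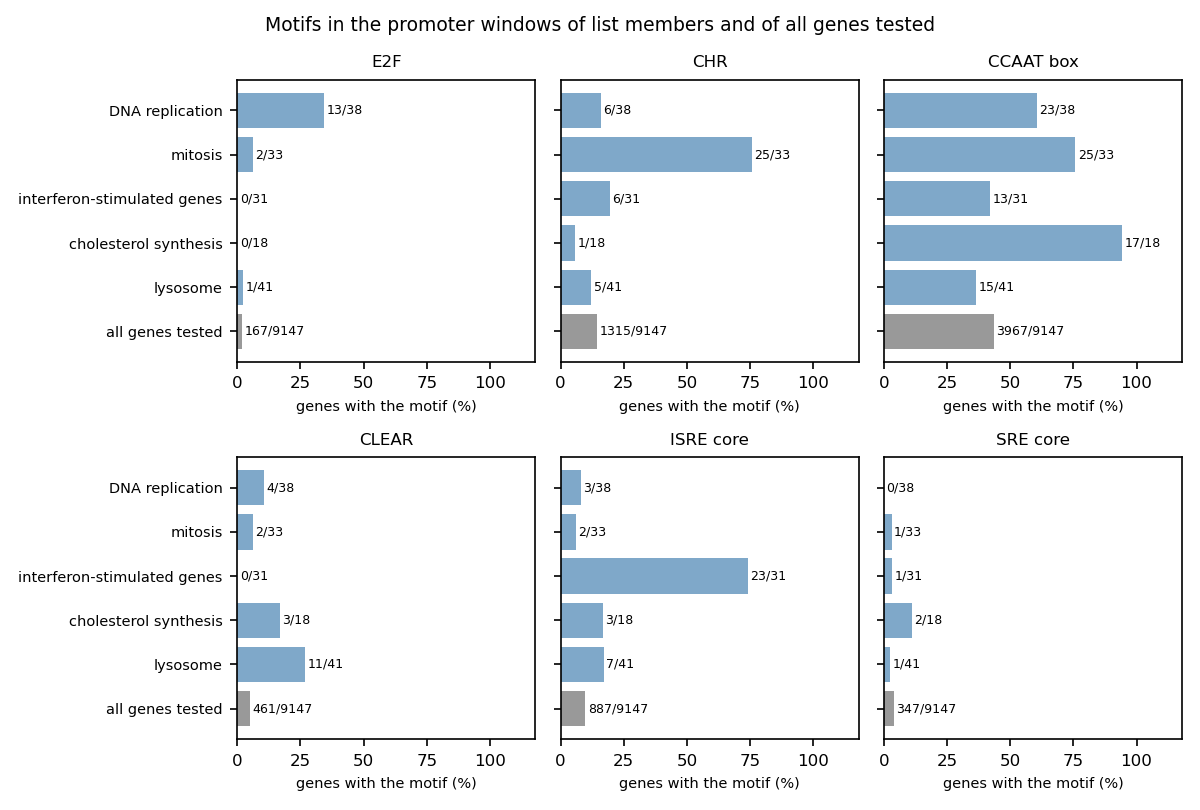
Percent of genes whose promoter windows hold each motif, for members of 5 lists (blue bars) and for all genes tested (grey bars), with the number of genes with the motif over the number with a window at the end of each bar. The longest bars apart from the CCAAT box are the CHR in mitosis genes (25 of 33) and the ISRE core in interferon-stimulated genes (23 of 31).

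The immediate early and ERK feedback genes were more often lower than higher under CO-CM, and ERK activity was not measured. Of 33 immediate early and ERK feedback genes tested, 18 were called lower and 5 higher. Dusp6, the phosphatase that ERK induces against itself, fell from 155, 176 and 155 to 17.7, 15.03 and 18.9 CPM (log2 fold change -3.23 ± 0.09, FDR 6.02e-09). Etv5, an ETS factor induced by the same pathway, fell from 198, 205 and 196 to 18.2, 27.6 and 29.6 CPM (log2 fold change -2.99 ± 0.14, FDR 5.15e-08), and the pathway inhibitors Spred2, Spred1 and Spry2 had log2 fold changes of -2.47, -1.60 and -1.40. The early genes were not alike. Egr1 fell from 19.2, 37.9 and 25.7 to 6.35, 6.44 and 7.44 CPM (log2 fold change -2.03 ± 0.20, FDR 8.45e-06), Fos was not called at 32.98, 58.3 and 42.9 CPM in UNX and 32.6, 60.9 and 60.8 CPM in CO-CM (log2 fold change 0.20 ± 0.26, FDR 0.512), and Junb rose from 83.8, 83.7 and 72.7 to 135, 192 and 156 CPM (log2 fold change 1.01 ± 0.16, FDR 0.000254). Zfp36, which destabilizes cytokine mRNAs, rose from 76.6, 85.7 and 85.5 to 151, 229 and 209 CPM (log2 fold change 1.25 ± 0.14, FDR 2.12e-05).

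Genes of ribosome building were lower under CO-CM. Of 37 ribosome biogenesis genes tested, 35 were called lower and none higher, with a median log2 fold change of -0.97. At an unadjusted p under 0.05 none was higher either. Nop56, a core protein of the particles that methylate ribosomal RNA, fell from 108, 83.9 and 96.4 to 32.3, 28.5 and 32.6 CPM (log2 fold change -1.63 ± 0.11, FDR 4.81e-07), and Ncl (nucleolin) from 787, 660.5 and 741 to 400.4, 374 and 404 CPM (log2 fold change -0.89 ± 0.07, FDR 1.07e-06). Among the genes of the ATF4 response, which supplies amino acids, there were 3 called higher and 13 called lower of 21 tested. Slc7a5, the transporter for leucine and other large amino acids, fell from 101, 52.3 and 78.6 to 12.9, 7.69 and 11.8 CPM (log2 fold change -2.84 ± 0.26, FDR 4.09e-06), and Psat1, Phgdh and Shmt2 of serine and glycine synthesis had log2 fold changes of -2.76, -1.44 and -1.63. Atf4 itself fell from 328, 299 and 349 to 221, 176 and 237 CPM (log2 fold change -0.62 ± 0.10, FDR 0.000313). The 3 members called higher were Vldlr, Ddit3 and Slc7a11, and without UNX replicate 3 only 1 was called. Of 21 endoplasmic reticulum chaperones and their regulators, 9 were called lower and 3 higher, with log2 fold changes between -0.92 for Manf and 0.59 for Ern1, a sensor of unfolded protein.

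Genes of lipid synthesis fell while genes of lipid uptake, storage and efflux mostly rose. Cholesterol synthesis had 23 of 25 members called lower and none higher, with a median of -1.10, and no member was higher at an unadjusted p under 0.05. Sqle, which oxidizes squalene on the way to sterols, fell from 209, 262 and 265 to 103, 93.1 and 105 CPM (log2 fold change -1.29 ± 0.09, FDR 4.86e-07), and Insig1, which retains the sterol sensor in the endoplasmic reticulum, from 153, 222 and 226 to 74.5, 67.8 and 75.5 CPM (log2 fold change -1.47 ± 0.13, FDR 2.89e-06). Srebf2, the factor that controls these genes, fell from 358, 400.1 and 399 to 258, 255 and 255 CPM (log2 fold change -0.59 ± 0.05, FDR 2.77e-06). The CCAAT box was in the windows of 17 of 18 members (94.4%) against 43.4% of all genes tested, and the SRE core in 2 of 18 (11.1%) against 3.79%. In fatty acid synthesis, 14 of 19 members were called lower and 1 higher. Scd2 and Scd1, which make monounsaturated fatty acids, both fell. Scd2 had 325, 918 and 739 CPM in UNX and 65.8, 69.2 and 66.8 CPM in CO-CM, and Scd1 had 35.8, 101 and 88.5 CPM in UNX and 7.61, 8.096 and 7.53 CPM in CO-CM. Their log2 fold changes were -3.30 ± 0.31, FDR 5.53e-06 for Scd2 and -3.28 ± 0.32, FDR 6.45e-06 for Scd1. Fasn, which makes palmitate, fell from 340.1, 397 and 419 to 88.98, 73.7 and 77.4 CPM (log2 fold change -2.27 ± 0.09, FDR 1.82e-08). UNX replicate 1 was the lowest of its group for Sqle, Insig1, Scd1, Scd2 and Fasn, and each CO-CM library lay below it.

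Of 24 genes of lipid uptake, storage and efflux, 16 were called higher and 4 lower. Apoe, the apolipoprotein that carries lipid out of macrophages, rose from 480.0, 613 and 599 to 1992, 2101 and 2033 CPM (log2 fold change 1.86 ± 0.11, FDR 1.57e-07). Fabp4, a fatty acid carrier, rose from 24.3, 47.7 and 53.2 to 177, 215 and 257 CPM (log2 fold change 2.37 ± 0.27, FDR 2.18e-05). Soat1, which esterifies cholesterol for storage, rose from 316, 392 and 377 to 834, 850.3 and 823 CPM (log2 fold change 1.21 ± 0.07, FDR 2.21e-07), Pnpla2, the lipase of lipid droplets, from 63.2, 69.4 and 70.3 to 142, 161 and 158 CPM (log2 fold change 1.18 ± 0.06, FDR 7.74e-08), and Plin2, the coat protein of those droplets, from 789, 841 and 889 to 1528, 1405 and 1502 CPM (log2 fold change 0.82 ± 0.07, FDR 2.26e-06). The sterol transporter Abca1 was not called, at 116, 212 and 178 CPM in UNX and 191, 232 and 155 CPM in CO-CM (log2 fold change 0.19 ± 0.20, FDR 0.413). Ch25h, which makes 25-hydroxycholesterol, fell from 4.07, 1.17 and 1.28 to 0.117, 0.0748 and 0.183 CPM (log2 fold change -4.07 ± 0.61, FDR 0.00016), and its log2 fold change without UNX replicate 1, the high library, was -3.28.

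Of the 32 lists, the lysosome list had the most members called higher. Of 52 genes tested, 45 were called higher and none lower, with a median log2 fold change of 0.71, and the count of 0 was the same with DESeq2 and edgeR's exact test, while 1 member passed the FDR alone in the lower direction. Together these 52 genes made up 57270.0 ± 5816 CPM in UNX and 114600.0 ± 3557 CPM in CO-CM, and every CO-CM library lay above every UNX library. Several are among the most abundant transcripts of these cells, so the sum rests on few genes. Gpnmb, a glycoprotein of lysosomes in lipid-laden macrophages, had 9314, 12273 and 12450.0 CPM in UNX and 27713, 30018 and 30466 CPM in CO-CM (log2 fold change 1.37 ± 0.11, FDR 2e-06). Psap, the precursor of the saposins that present lipids to lysosomal enzymes, had 4954, 6466 and 6202 CPM in UNX and 17363, 18534 and 16103 CPM in CO-CM (log2 fold change 1.56 ± 0.11, FDR 5.07e-07). The proteases Ctsb, Ctsd and Ctss rose with log2 fold changes of 0.66, 1.18 and 1.10, and Ctsh with the largest change of the list from 30.1, 34.8 and 34.4 to 129, 153 and 138 CPM (log2 fold change 2.08 ± 0.09, FDR 1.77e-08). Per length, in the RPKM values of the authors, Psap went from 2198 ± 275 to 6188 ± 419 and Ctsd from 2255 ± 123 to 4870.4 ± 171 RPKM, against 682 ± 44.6 and 1074 ± 16.5 RPKM for Lamp1, a structural protein of the membrane. Atp6v0d2, a subunit of the proton pump, rose from 69.6, 207 and 187 to 382, 629 and 613 CPM (log2 fold change 1.81 ± 0.35, FDR 0.000984), and Mcoln1, the calcium channel of lysosomes, from 84.5, 86.98 and 87.5 to 157, 151 and 151 CPM (log2 fold change 0.83 ± 0.05, FDR 1.23e-07). Of the factors that control lysosomal genes, Tfeb rose from 41.7, 48.9 and 52.3 to 84.2, 99.03 and 99.5 CPM (log2 fold change 0.98 ± 0.09, FDR 3.61e-06), Mitf rose with a log2 fold change of 0.43, and Tfe3 was not called at 164, 162 and 159 CPM in UNX and 177, 182 and 174 CPM in CO-CM. Ctsb overlaps the cholesterol gene Fdft1 in position, which makes the value of Fdft1 uncertain.

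The CLEAR element was in the windows of 11 of 41 lysosome genes (26.8%), of 3 of 22 autophagy genes (13.6%) and of 5.04% of all genes tested. Among all genes called higher it was in 5.33%, and among all called lower in 4.23%. It is marked in the promoters of the protease Ctsd, the membrane protein Lamp1, the channel Mcoln1 and the glycosidase Naglu.
Ctsd, chr7:142387882-142387961, - strand: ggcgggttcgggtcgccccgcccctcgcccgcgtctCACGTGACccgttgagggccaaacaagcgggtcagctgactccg
Lamp1, chr8:13159097-13159160, + strand: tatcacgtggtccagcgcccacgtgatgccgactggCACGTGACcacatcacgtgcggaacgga
Mcoln1, chr8:3500438-3500517, + strand: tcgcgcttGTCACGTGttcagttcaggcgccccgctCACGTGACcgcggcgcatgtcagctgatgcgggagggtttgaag
Naglu, chr11:101069983-101070062, + strand: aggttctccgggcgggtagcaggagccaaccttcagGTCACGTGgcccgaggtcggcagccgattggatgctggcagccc

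Autophagy genes rose as well, with 21 of 26 called higher and none lower in the comparison of all libraries, against 1 lower without UNX replicate 2 or with scaling by library size alone. Gabarapl1 and Map1lc3b, which coat the autophagosome, rose from 55.4, 67.9 and 62.3 to 145, 156 and 157 CPM (log2 fold change 1.30 ± 0.07, FDR 1.03e-07) and from 102, 117 and 112 to 209, 223 and 212 CPM (log2 fold change 0.96 ± 0.06, FDR 2.16e-07), and the kinase Ulk1, which starts the process, from 41.4, 43.97 and 40.9 to 101, 101 and 92.2 CPM (log2 fold change 1.22 ± 0.05, FDR 1.77e-08). Of 21 targets of the FoxO factors, which are active when PI3K signaling is low, 13 were called higher and 2 lower. Bcl2l11 (Bim), which promotes cell death on growth factor loss, rose from 49.7, 52.3 and 48.7 to 129, 139 and 119 CPM (log2 fold change 1.36 ± 0.06, FDR 2.11e-08), Il7r from 128, 192 and 196 to 391, 438 and 473 CPM (log2 fold change 1.34 ± 0.15, FDR 1.61e-05), and Pik3ip1, an inhibitor of PI3K, from 0.602, 0.928 and 1.02 to 3.54, 5.25 and 3.795 CPM (log2 fold change 2.28 ± 0.24, FDR 1.08e-05). Klf2 and Trib1, also on that list, were the members called lower.

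**Figure D3:**
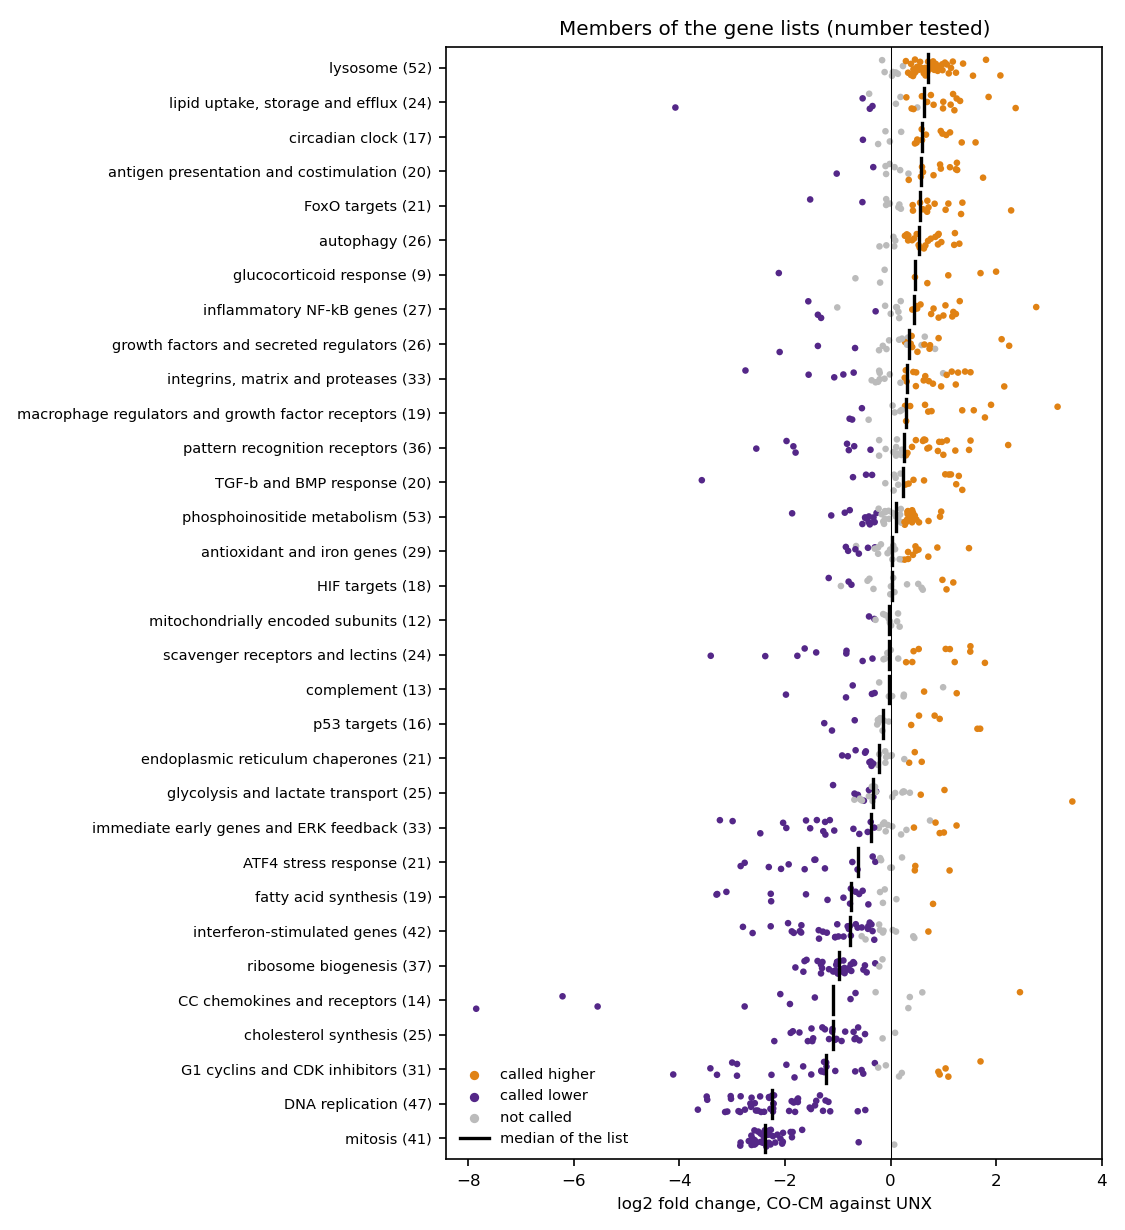
Log2 fold change of CO-CM against UNX (x axis) for each tested member of the 32 gene lists (rows, with the number tested), one point per gene and a black bar at the median of the list. The points of the mitosis and DNA replication lists lie almost wholly on the left, with medians of -2.37 and -2.24, and those of the lysosome list lie mostly on the right, with a median of 0.71.

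The 3 largest decreases among genes whose groups did not overlap were those of Ccl12, Ccl7 and Ccl2, chemokines that call monocytes into tissue. Ccl2 (MCP-1), the main ligand of CCR2, had 383, 335 and 433 CPM in UNX and 5.24, 7.004 and 12.3 CPM in CO-CM (log2 fold change -5.55 ± 0.28, FDR 6.85e-08), a fold change of 46.7. Its neighbour Ccl7 had 113, 123 and 149 CPM in UNX and 1.32, 1.32 and 2.53 CPM in CO-CM (log2 fold change -6.21 ± 0.21, FDR 7.89e-09). Ccl12, another CCR2 ligand, had 5.52, 4.29 and 4.796 CPM in UNX, no read in CO-CM replicates 1 and 2 and 0.0562 CPM in replicate 3. For replicates 1 and 2 of CO-CM alone, a floor of 3 counts over both libraries would put Ccl12 220-fold lower. That value leaves out replicate 3, the only CO-CM library with reads. Both mates of a pair may also be counted, so it is no strict bound. The 3 genes lie close together at chr11:82035571-82037453 (Ccl2), chr11:82045712-82047525 (Ccl7) and chr11:82101845-82103400 (Ccl12) in GRCm38. Ccl3 and Ccl4, which attract macrophages and T cells, fell from 91.01, 61.4 and 80.4 to 16.5, 16.4 and 21.9 CPM (log2 fold change -2.09 ± 0.16, FDR 1.2e-06) and from 44.1, 27.9 and 34.3 to 4.67, 4.58 and 6.396 CPM (log2 fold change -2.76 ± 0.20, FDR 8.04e-07), and the abundant Ccl9 fell from 516, 699.8 and 689 to 162, 285 and 258 CPM (log2 fold change -1.43 ± 0.19, FDR 7.91e-05). Of 14 members of the CC chemokine list tested, of 24 listed, 9 were called lower and 1 higher, and the number higher was 4 with the replicate block and 2 without UNX replicate 1. The member called higher was Ccrl2, a receptor that binds chemerin without signaling, which rose from 2.35, 2.81 and 3.26 to 12.7, 17.2 and 16.4 CPM (log2 fold change 2.45 ± 0.16, FDR 3.14e-07).

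Inflammatory genes did not move as a block. Of 27 genes of the NF-kB list tested, 15 were called higher and 4 lower, with a median of 0.45. Those higher included subunits and feedback inhibitors of the pathway, with Relb at 20.5, 15.4 and 14.3 CPM in UNX and 35.99, 41.5 and 34.9 CPM in CO-CM (log2 fold change 1.17 ± 0.12, FDR 1.16e-05), Bcl3 at 12.99, 10.8 and 11.4 CPM in UNX and 28.7, 32.3 and 26.2 CPM in CO-CM (log2 fold change 1.31 ± 0.11, FDR 1.87e-06), and Birc3 and Tnip1 with log2 fold changes of 1.00 and 0.81. Il1b, the precursor of interleukin 1 beta, rose on a very low level, from 0.185, 0.186 and 0.0931 to 0.424, 1.89 and 0.801 CPM (log2 fold change 2.76 ± 0.59, FDR 0.00187), and its log2 fold change was 2.01 without CO-CM replicate 2. Il1b, Il1a and Cxcl1, all called higher, would not have passed the filter without the PH-CM libraries. Mean levels in UNX, CO-CM and PH-CM were 0.19, 0.44 and 1.45 CPM for Il1a and 0.26, 0.57 and 2.32 CPM for Cxcl1. The count of members called higher was thus set in part by the filter. Cxcl3, which passed in the same way, was not called. The members called lower were Tnf at 33.99, 18.7 and 22.2 CPM in UNX and 9.81, 9.37 and 10.9 CPM in CO-CM (log2 fold change -1.32 ± 0.18, FDR 9.98e-05), Cd40 at 12.1, 10.5 and 11.1 CPM in UNX and 3.04, 4.31 and 4.08 CPM in CO-CM (log2 fold change -1.56 ± 0.15, FDR 5.5e-06), Il1rn and Ier3.

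Interferon-stimulated genes fell. Of 42 tested, 31 were called lower and 1, Isg20, higher, with a median of -0.76, and the count higher was 2 with the replicate block and 3 without CO-CM replicate 1. Cxcl10, which attracts T cells, fell from 3.26, 2.52 and 2.68 to 0.3803, 0.584 and 0.253 CPM (log2 fold change -2.80 ± 0.45, FDR 0.000277). Rsad2 (viperin), an inhibitor of viral replication, fell from 18.9, 22.6 and 23.1 to 6.45, 10.5 and 9.66 CPM (log2 fold change -1.28 ± 0.28, FDR 0.00215), Irf7, which amplifies the response, from 26.8, 25.5 and 28.8 to 8.89, 14.4 and 15.9 CPM (log2 fold change -1.05 ± 0.18, FDR 0.000353), and Ifit1, which binds foreign RNA, from 6.48, 6.86 and 7.64 to 1.46, 3.14 and 3.598 CPM (log2 fold change -1.35 ± 0.28, FDR 0.00145). Stat2, a signal carrier of the response, changed less, with a log2 fold change of -0.42. The ISRE core was in the windows of 23 of 31 of these genes (74.2%) and of 9.7% of all genes tested, and is marked in the promoters of Ifit1 and Isg15.
Ifit1, chr19:34640768-34640848, + strand: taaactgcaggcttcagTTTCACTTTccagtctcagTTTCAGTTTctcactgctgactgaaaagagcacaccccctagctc
Isg15, chr4:156200839-156200919, - strand: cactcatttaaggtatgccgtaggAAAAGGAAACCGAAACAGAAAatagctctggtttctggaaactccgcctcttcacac

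Of 36 pattern recognition receptors and their adaptors, 18 were called higher and 8 lower. Clec7a (dectin-1), the receptor for fungal glucans, had 17.5, 35.02 and 34.7 CPM in UNX and 72.5, 174 and 163 CPM in CO-CM (log2 fold change 2.23 ± 0.35, FDR 0.000221). The endosomal receptors Tlr8 and Tlr9 rose from 80.6, 89.04 and 82.02 to 261, 241 and 217 CPM (log2 fold change 1.51 ± 0.07, FDR 3.37e-08) and from 2.38, 3.98 and 3.86 to 8.51, 11.2 and 9.14 CPM (log2 fold change 1.49 ± 0.20, FDR 8.46e-05), and Tlr2 at the cell surface from 52.2, 33.8 and 34.8 to 92.2, 87.6 and 72.98 CPM (log2 fold change 1.07 ± 0.15, FDR 9.19e-05). Naip5, Naip2 and Naip6, sensors of bacterial flagellin and secretion systems whose reads may be shared between near-identical copies, had log2 fold changes of 1.23, 1.00 and 0.90. Nlrp3, the sensor of an inflammasome, fell from 97.1, 76.2 and 75.9 to 20.4, 27.1 and 24.1 CPM (log2 fold change -1.80 ± 0.12, FDR 5.88e-07), Cgas, the sensor of cytosolic DNA, from 32.6, 26.2 and 28.2 to 8.59, 7.81 and 7.91 CPM (log2 fold change -1.84 ± 0.11, FDR 2.4e-07), and Cd14, the coreceptor for lipopolysaccharide, from 335, 287 and 305 to 158, 189 and 176 CPM (log2 fold change -0.82 ± 0.09, FDR 1.77e-05).

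Surface receptors split into those that rose and those that fell. Of 24 scavenger receptors and lectins tested, 10 were called higher and 9 lower. Mrc1, the mannose receptor, fell from 903, 1045 and 817 to 185, 169 and 180.1 CPM (log2 fold change -2.37 ± 0.09, FDR 1.02e-08), one of the 8 largest losses in CPM of all genes called. Cd163, which takes up haemoglobin, fell from 39.1, 42.7 and 39.8 to 10.6, 13.98 and 11.3 CPM (log2 fold change -1.76 ± 0.10, FDR 1.01e-07), and Msr1, a receptor for modified LDL, from 579, 445 and 488 to 156, 153 and 181 CPM (log2 fold change -1.63 ± 0.10, FDR 2.79e-07). Mertk, which clears apoptotic cells, rose from 47.4, 53.5 and 49.7 to 161, 141 and 128 CPM (log2 fold change 1.51 ± 0.08, FDR 7.47e-08), and Cxcl16, a scavenger receptor that is also a chemokine, from 23.1, 19.9 and 21.1 to 68.2, 83.3 and 69.6 CPM (log2 fold change 1.79 ± 0.10, FDR 1.26e-07), with Zmynd15 overlapping it. Of 20 antigen presentation genes, 12 were called higher and 2 lower, and 1 was lower with upper-quartile factors or when UNX replicate 2 or 3 or CO-CM replicate 1 or 2 was left out. H2-D1, which displays peptides to CD8 T cells, rose from 1223, 1445 and 1388 to 2423, 2781 and 2648 CPM (log2 fold change 0.95 ± 0.08, FDR 1.88e-06), and Cd274 (PD-L1), which restrains T cells, from 17.1, 27.3 and 24.3 to 70.9, 81.01 and 79.8 CPM (log2 fold change 1.75 ± 0.15, FDR 2.79e-06). The class II genes H2-Aa, H2-Ab1 and H2-Eb1 were all higher but at means of at most 9.35 CPM in CO-CM. Of 13 complement genes tested, 5 were called lower and 2 higher, against 4 higher without CO-CM replicate 1, and 4 higher and 4 lower with upper-quartile factors. C5ar1, the receptor for the attractant C5a, fell from 879, 742 and 775 to 188, 207 and 212 CPM (log2 fold change -1.98 ± 0.07, FDR 1.02e-08).

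Receptors of the colony-stimulating factors and of IL-3 rose. All 6 of the receptor genes listed for CSF1, GM-CSF, G-CSF and IL-3 were called higher, while Nrp1 and Kdr, both of VEGF signaling, were called lower with log2 fold changes of -0.73 and -1.05. Csf3r, the receptor for G-CSF, had 5.45, 7.17 and 7.998 CPM in UNX and 53.3, 70.9 and 61.3 CPM in CO-CM (log2 fold change 3.16 ± 0.18, FDR 1.52e-07), a fold change of 8.96. Csf2rb, the shared beta chain of the GM-CSF and IL-3 receptors, rose from 108, 136 and 132 to 354, 504 and 441 CPM (log2 fold change 1.79 ± 0.13, FDR 8.74e-07), and its close relative Csf2rb2 from 158, 227 and 212 to 485, 692 and 603 CPM (log2 fold change 1.58 ± 0.15, FDR 5.36e-06), with reads that may be split between the pair. Cebpa, a factor of myeloid differentiation, rose from 90.1, 91.3 and 95.4 to 371, 326 and 339 CPM (log2 fold change 1.90 ± 0.08, FDR 2.22e-08), while Maf fell from 703, 805 and 698 to 463, 437 and 389 CPM (log2 fold change -0.78 ± 0.08, FDR 1.47e-05). Over the whole list of macrophage regulators and growth factor receptors there were 11 called higher and 3 called lower of 19 tested. Cxcr4, the receptor for CXCL12 that keeps cells in the marrow, rose from 22.5, 31.9 and 30.8 to 245, 249 and 235 CPM (log2 fold change 3.10 ± 0.11, FDR 9.57e-09).

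Among secreted regulators, 12 of 26 tested were called higher and 3 lower, and 7 were higher without CO-CM replicate 3. Hgf, a growth factor for epithelium, rose from 7.45, 8.96 and 8.82 to 42.9, 39.3 and 37.7 CPM (log2 fold change 2.25 ± 0.08, FDR 9.07e-09), and Pdgfc, a mitogen for fibroblasts, from 5.32, 5.87 and 5.67 to 25.1, 24.1 and 23.4 CPM (log2 fold change 2.10 ± 0.08, FDR 1.28e-08). Gdf15, a stress-induced member of the TGF-b family, fell from 53.8, 58.5 and 82.6 to 16.2, 12.3 and 16.9 CPM (log2 fold change -2.10 ± 0.20, FDR 6.47e-06), and Tgfb1 was not called at 518, 574 and 555 CPM in UNX and 489, 542 and 529.8 CPM in CO-CM. In the TGF-b and BMP response list there were 10 called higher and 4 called lower of 20 tested. Id1 and Id3, related inhibitors of differentiation factors, moved in opposite directions, Id1 from 66.5, 32.9 and 44.1 to 4.15, 2.96 and 4.89 CPM (log2 fold change -3.57 ± 0.26, FDR 9.77e-07) and Id3 from 60.7, 21.9 and 35.01 to 88.3, 95.3 and 94.4 CPM (log2 fold change 1.24 ± 0.27, FDR 0.00186). Of 33 integrins, matrix proteins and proteases, 18 were called higher and 5 lower, and 9 were lower when libraries were scaled by size alone. Plau (urokinase), the protease that activates plasmin, fell from 920.3, 702 and 804 to 66.3, 123 and 172 CPM (log2 fold change -2.75 ± 0.28, FDR 8.69e-06), and Itgb3, the beta chain of the vitronectin receptor, rose from 11.1, 14.3 and 13.04 to 50.8, 61.2 and 59.1 CPM (log2 fold change 2.15 ± 0.10, FDR 3.8e-08). The summed fibroblast markers given above were also higher in each CO-CM library than in each UNX library, and their part in the matrix genes was not tested.

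Smaller regulatory lists gave the following counts. Of 17 circadian clock genes, 12 were called higher and 1, Arntl, lower, and 2 were lower without UNX replicate 2 or 3 or CO-CM replicate 1. Dbp, an output factor of the clock, rose from 9.34, 16.6 and 14.2 to 35.6, 48.4 and 38.7 CPM (log2 fold change 1.61 ± 0.18, FDR 2.16e-05), and Per3, one of its repressors, from 13.3, 18.2 and 15.04 to 32.2, 37.5 and 31.98 CPM (log2 fold change 1.13 ± 0.11, FDR 6.63e-06). Of 9 glucocorticoid response genes tested, 5 were called higher and 1 lower, and 2 were lower with the replicate block and without UNX replicate 1 or CO-CM replicate 1, and 3 with scaling by library size alone. They moved apart, since Sgk1, a kinase of ion transport, rose from 38.6, 38.1 and 36.7 to 147, 149 and 158 CPM (log2 fold change 2.00 ± 0.08, FDR 1.23e-08) and Fkbp5, a cochaperone of the receptor, fell from 52.2, 42.8 and 47.8 to 11.3, 10.3 and 11.3 CPM (log2 fold change -2.12 ± 0.11, FDR 8.92e-08). Of 16 p53 targets, 6 were called higher and 3 lower, against 7 lower with scaling by library size alone, 6 lower without the filter on low counts, with filterByExpr or without UNX replicate 2 and 5 lower without UNX replicate 3 or CO-CM replicate 1. Trp53inp1, which promotes arrest and autophagy, rose from 12.3, 19.3 and 15.2 to 49.4, 50.3 and 47.02 CPM (log2 fold change 1.65 ± 0.13, FDR 1.34e-06). Of 53 genes of phosphoinositide metabolism, through which PI3K signals pass, 20 were called higher and 14 lower, against 13 higher and 15 lower with scaling by library size alone. Inpp4b, a phosphatase of that pathway, fell with a log2 fold change of -1.86, and the catalytic subunits Pik3cg, Pik3cb and Pik3cd had -0.87, -0.47 and -0.42. Antioxidant and iron genes had 10 called higher and 6 called lower of 29 tested, with Fth1, the ferritin heavy chain that stores iron, at 10979, 11419 and 12020.3 CPM in UNX and 18167, 18682 and 19663 CPM in CO-CM (log2 fold change 0.72 ± 0.07, FDR 5.38e-06), and Txnrd1 (thioredoxin reductase) at 441, 289 and 333 CPM in UNX and 223, 171 and 197 CPM in CO-CM (log2 fold change -0.85 ± 0.16, FDR 0.000747).

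Genes of glycolysis differed between replicate numbers as well as between groups. The 25 genes of glycolysis and lactate transport summed to 12478, 17718 and 15606 CPM in UNX and to 8776, 14799 and 13203 CPM in CO-CM, so that replicate 1 was the lowest and replicate 2 the highest in both. The groups overlapped, and each CO-CM library lay below the UNX library of the same number. In the comparison without the replicate block, 7 members were called lower and 3 higher, but 3 lower and 5 higher with upper-quartile factors, so the balance turned with the scaling. Without the filter on low counts 15 were lower. With the block the counts were 16 lower and 6 higher, without CO-CM replicate 1 they were 4 lower and 6 higher, and 4 were lower without UNX replicate 2. Ldha, which makes lactate, had 1081, 1827 and 1542 CPM in UNX and 703, 1499 and 1313 CPM in CO-CM (log2 fold change -0.34 ± 0.27, FDR 0.289), and with the block its log2 fold change was -0.37 with an FDR of 0.00102. Of 18 HIF targets, 3 were called higher and 3 lower, against 7 higher and 6 lower with the block. Without CO-CM replicate 1 or UNX replicate 2, 6 were higher, and without CO-CM replicate 2, 6 were lower. The number higher was 5 with upper-quartile factors or the edgeR exact test, and 7 were higher and 6 lower without the filter. Vegfa, which induces vessel growth, was not called at 48.5, 99.1 and 73.5 CPM in UNX and 65.9, 162 and 105 CPM in CO-CM (log2 fold change 0.59 ± 0.31, FDR 0.12), against an FDR of 0.000518 with the block, 0.0453 without UNX replicate 2 and 0.0194 without CO-CM replicate 1. Ldhb, the other lactate dehydrogenase, rose from 0.617, 0.954 and 0.838 to 7.28, 9.88 and 9.28 CPM (log2 fold change 3.44 ± 0.18, FDR 9.3e-08), without overlap between the groups. Of 12 subunits encoded by the mitochondrial genome, 2 were called lower and none higher, 1 was lower without CO-CM replicate 2, and 1 passed the FDR alone as higher. Their summed level was 16710.0 ± 68.4 CPM in UNX and 16760.0 ± 923 CPM in CO-CM.

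**Figure D4:**
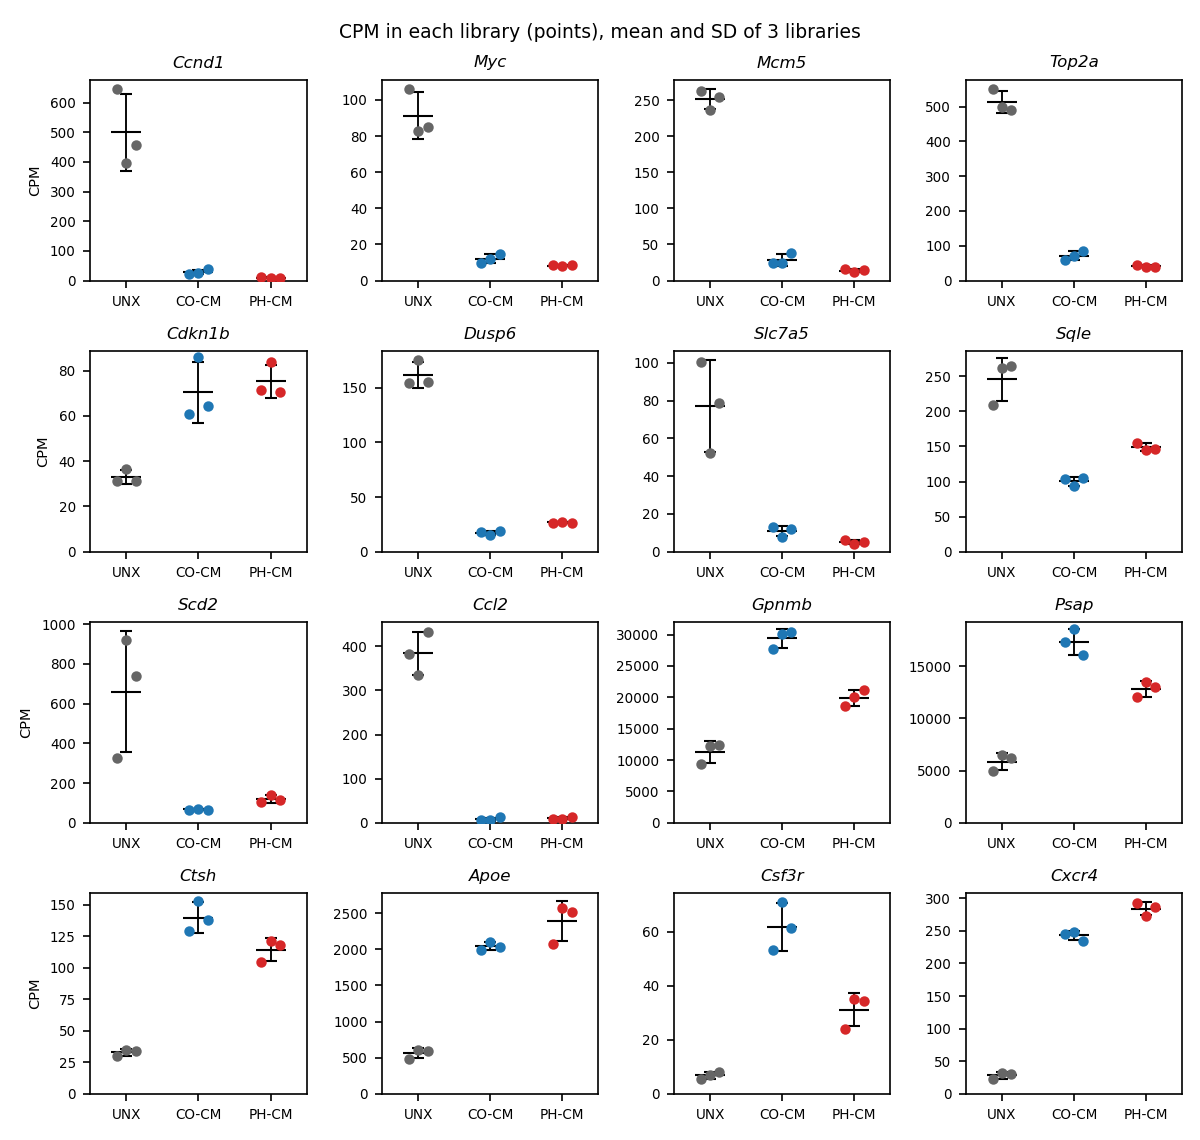
CPM (y axes, starting at 0) of 16 genes named in the text in each of the 3 UNX, 3 CO-CM and 3 PH-CM libraries, with the mean (long bar) and SD (error bars). In every panel the 3 CO-CM points lie wholly above or wholly below the 3 UNX points, as for Psap with 17363, 18534 and 16103 against 4954, 6466 and 6202 CPM.

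The 15 largest increases and the 15 largest decreases among genes that did not overlap between the groups held further genes outside the lists, whose values are those that chose them. Slc36a2, an amino acid transporter, had the largest increase among the genes with a mean of at least 1 CPM and no clone-style name, from 0.0617, 0.0795 and 0.0698 to 2.18, 2.51 and 2.01 CPM (log2 fold change 4.95 ± 0.22, FDR 3.08e-08). Mamdc2 rose from 2.35, 7.23 and 6.12 to 55.7, 100.4 and 89.3 CPM (log2 fold change 3.95 ± 0.35, FDR 3.23e-06). Prdm1 (Blimp-1), a repressor in lymphoid and myeloid differentiation, rose from 2.59, 2.62 and 2.42 to 26.1, 31.1 and 21.8 CPM (log2 fold change 3.37 ± 0.16, FDR 4.34e-08), and Bmf, a relative of Bim that promotes cell death, from 1.76, 3.27 and 2.095 to 20.2, 23.5 and 18.7 CPM (log2 fold change 3.12 ± 0.19, FDR 2.31e-07). Ms4a4a, a membrane protein of macrophages, rose from 1.03, 1.25 and 1.37 to 11.03, 11.8 and 11.2 CPM (log2 fold change 3.21 ± 0.14, FDR 2.45e-08), and Cd200, the ligand of an inhibitory myeloid receptor, from 0.432, 0.742 and 0.885 to 4.21, 4.25 and 5.97 CPM (log2 fold change 2.79 ± 0.24, FDR 3.22e-06). The study also lists Slc36a2 and Ms4a4a among the genes most raised by PH-CM over untreated cells. Among the decreases, Cd300e, an activating receptor of monocytes, fell from 8.24, 7.95 and 6.73 to 0.234, 0.1497 and 0.225 CPM (log2 fold change -5.22 ± 0.23, FDR 2.91e-08), and Ctnnd2 (delta-catenin) from 15.5, 11.4 and 12.1 to 0.293, 0.329 and 0.506 CPM (log2 fold change -5.10 ± 0.22, FDR 2.91e-08). Dmpk, a kinase best known from myotonic dystrophy, fell from 72.4, 49.5 and 62.5 to 1.65, 2.01 and 1.74 CPM (log2 fold change -5.09 ± 0.17, FDR 7.18e-09), and Dmwd, whose annotated end lies 1072 bases from it, from 41.3, 28.6 and 36.8 to 2.46, 1.77 and 2.36 CPM (log2 fold change -4.01 ± 0.18, FDR 3.69e-08). The largest losses in CPM fell on Actb (actin), Dab2, an adaptor of endocytosis, and Tubb5 (tubulin), with Dab2 at 2310.2, 2025 and 2052 CPM in UNX and 399.7, 327 and 366 CPM in CO-CM (log2 fold change -2.55 ± 0.08, FDR 7.03e-09). The largest gain in CPM was that of Gpnmb, and the 10 most abundant genes took between 7.89% and 8.69% of counted reads in UNX and between 13.4% and 13.6% in CO-CM.

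The level under CO-CM was tested directly against that under PH-CM in the same fit. There, 1457 genes (12.2%) were called higher and 1787 (15%) lower under PH-CM than under CO-CM, and comparisons against UNX share the same UNX libraries, so their values are given side by side only. Most cell cycle genes were lower still under PH-CM, with 37 of 47 replication genes and 36 of 41 mitosis genes called lower than under CO-CM. In these lists 1 gene, Cenpa, was called higher, at 48.2 ± 11.9 CPM in CO-CM and 100.2 ± 15.3 CPM in PH-CM (FDR 0.000693). Ccnd1 had 23.4, 25.6 and 37.5 CPM in CO-CM and 10.9, 7.68 and 9.58 CPM in PH-CM (log2 fold change -1.62 ± 0.23, FDR 0.000305, where, as below, a negative value is a lower level under PH-CM). Cholesterol synthesis genes stood higher under PH-CM, with 14 of 25 members called higher than under CO-CM and none lower. Sqle had 103, 93.1 and 105 CPM in CO-CM and 155, 145 and 147 CPM in PH-CM (0.57 ± 0.09, FDR 0.000511). Interferon-stimulated genes also differed, with 21 of 42 higher and 1 lower under PH-CM. In the lysosome list 4 members were higher and 14 lower under PH-CM, among the latter Gpnmb with 27713, 30018 and 30466 CPM in CO-CM and 18609, 20040.0 and 21161 CPM in PH-CM (-0.56 ± 0.11, FDR 0.00269). No direct difference was called for Ccl2, at 9.51, 8.902 and 12.4 CPM in PH-CM (0.32 ± 0.26, FDR 0.36), so its SE leaves room for a difference in either direction.

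Genes called at 2-fold or more both against UNX and against PH-CM in the same direction were the highest or the lowest under CO-CM, and since these same values chose them, their tests add no support. Mamdc2 stood at 55.7, 100.4 and 89.3 CPM in CO-CM and 3.12, 4.17 and 4.12 CPM in PH-CM (-4.43 ± 0.36, FDR 8.74e-06). Cd5l, a secreted survival factor of tissue macrophages, had 21.4, 30.8 and 32.1 CPM in UNX, 59.2, 63.3 and 61.5 CPM in CO-CM and 6.41, 6.95 and 5.89 CPM in PH-CM (-3.26 ± 0.14, FDR 1.42e-07), so that CO-CM lay above and PH-CM below UNX. Flt1, a VEGF receptor, showed the same order at 1.99, 2.69 and 2.84 CPM in UNX, 5.89, 7.32 and 6.14 CPM in CO-CM and 1.28, 1.13 and 0.981 CPM in PH-CM (-2.51 ± 0.17, FDR 2.96e-06), and Plxdc2 at 3.89, 3.29 and 4.33 CPM in UNX, 10.1, 15.2 and 10.7 CPM in CO-CM and 2.08, 1.74 and 1.74 CPM in PH-CM (-2.69 ± 0.18, FDR 2.58e-06). Clec7a had 72.5, 174 and 163 CPM in CO-CM and 21.9, 32.4 and 35.1 CPM in PH-CM (-2.20 ± 0.35, FDR 0.000745). In the other direction, Trem1, which amplifies inflammatory signals, had 1.79, 0.6095 and 0.745 CPM in UNX, 0.293, 0.0898 and 0.141 CPM in CO-CM and 13.8, 12.04 and 12.03 CPM in PH-CM (6.16 ± 0.43, FDR 2.91e-06). Trem1 would not have passed the filter without the PH-CM libraries. Tlr5, the receptor for flagellin, had 2.28, 2.796 and 2.54 CPM in UNX, 0.497, 0.539 and 0.8996 CPM in CO-CM and 24.5, 28.6 and 27.9 CPM in PH-CM (5.38 ± 0.18, FDR 2.57e-08). Cass4 fell from 8.13, 11.6 and 9.59 CPM in UNX to 0.351, 0.958 and 0.801 CPM in CO-CM and stood at 5.74, 12.1 and 11.5 CPM in PH-CM (3.80 ± 0.36, FDR 2.47e-05). Klra2, a lectin-like receptor, had 1.605, 1.68 and 1.82 CPM in UNX, 0.4095, 0.479 and 0.365 CPM in CO-CM and 3.85, 3.98 and 4.94 CPM in PH-CM (3.34 ± 0.18, FDR 4.78e-07), and Dusp5, a phosphatase of nuclear ERK, had 7.28, 11.5 and 8.51 CPM in UNX, 3.13, 4.88 and 4.301 CPM in CO-CM and 30.3, 46.8 and 46.01 CPM in PH-CM (3.32 ± 0.23, FDR 2.93e-06).

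**Figure D5:**
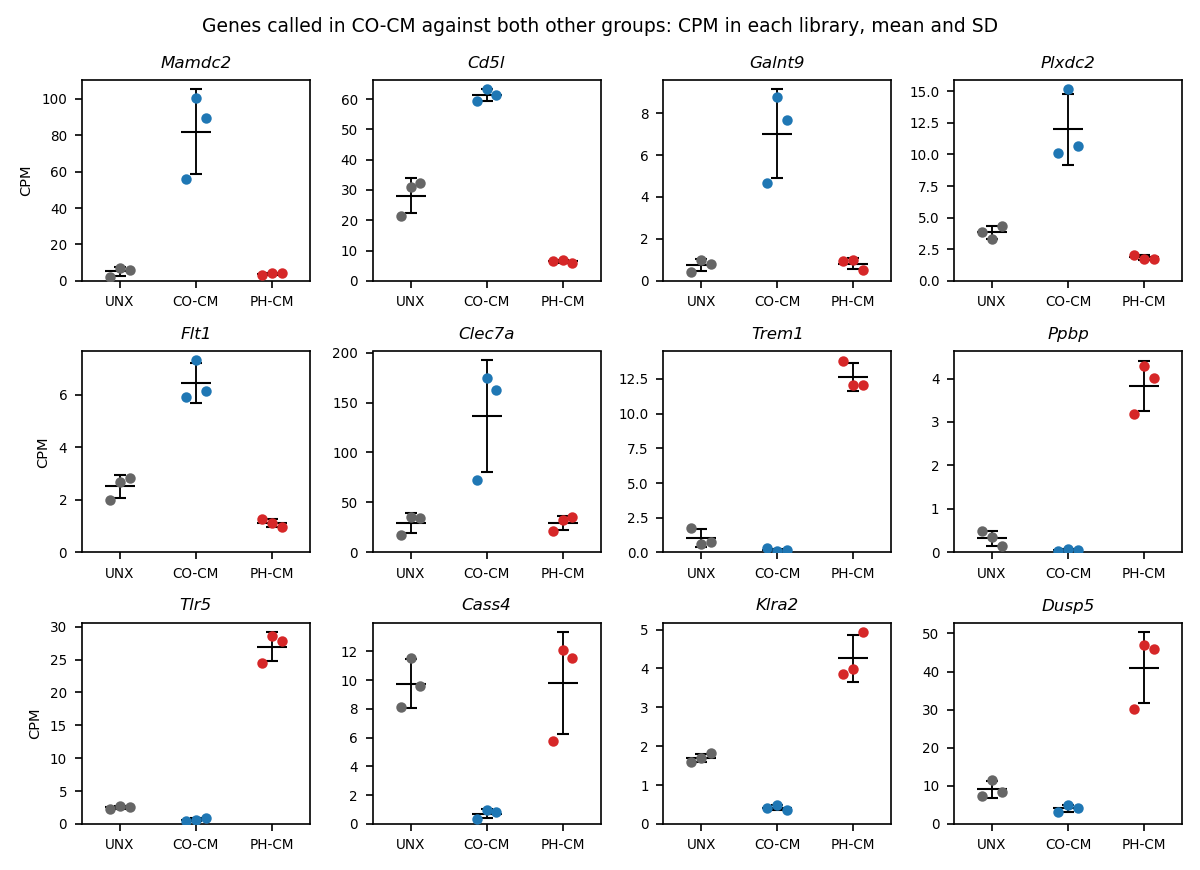
CPM (y axes, starting at 0) in each library of the 3 groups, with the mean (long bar) and SD (error bars), for 12 genes called in CO-CM against both UNX and PH-CM. The first 6 genes are highest under CO-CM, as Cd5l at 59.2, 63.3 and 61.5 CPM, and the last 6 are lowest there, as Tlr5 at 0.497, 0.539 and 0.8996 CPM.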

How the data were processed

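Poly(A) RNA of the 9 macrophage cultures was sequenced in pairs. Per the sources used here, the authors trimmed reads with AfterQC, aligned them with STAR to GRCm38 and counted them per gene with featureCounts 1.6.2. The deposited table of raw counts is not normalized. Most small counts were even (between 81.4% and 83.8% of those under 20), and halving all counts was one of the alternatives. The counting parameters in the study's methods name neither strand nor pairs, and by the tool's defaults reads were counted without strand and mates singly. The authors' RPKM table served only to compare levels between genes per length. The authors' tables of fold changes and p-values for the 3 pairs of groups were not used.

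Libraries were grouped by their titles. Genes with more than 1 CPM in at least 3 of the 9 libraries were kept, scaled by TMM and fitted in 1 edgeR quasi-likelihood model with a mean per group (edgeR 4.0.16, limma 3.58.1, R 4.3.3). The SE was taken from the fold change and its F statistic. CPM use the TMM-scaled library size. In simulated data for CO-CM against UNX on 11779 genes, all 200 changed genes were called, with 9 false calls. The changed genes were drawn from levels well above the filter and changed by 2-fold or more. Far fewer genes changed than were called in the data, and no effect of the replicate number was simulated. The simulation thus does not show how well smaller changes or genes at low levels are called. DESeq2 1.42.0, other scalings and filters, and the removal of each library were alternatives. Of 53465 gene identifiers, 53274 matched a name. No pair of replicate libraries agreed within sampling noise (chi-square per gene of 10.61 or more). Same-numbered libraries deviated together from their group means (r between 0.276 and 0.484 in 9 pairs). Other pairs had r between -0.376 and 0.042, but deviations sum to 0 within a group, so these values are no separate evidence. The study repeated the experiment 3 times and does not say whether the replicate numbers are those repeats. A fit with the number as a block was therefore run as an alternative.

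The genes named are the 15 called genes with the largest increases and the 15 with the largest decreases among those with a mean of at least 1 CPM, no clone-style name and no overlap between groups, the 8 with the largest gain and the 8 with the largest loss in CPM, members of the gene and cell type marker lists, and genes called at 2-fold or more against both other groups. Within a list, these are its key members and the largest or most abundant called ones. Birc3, Btg1, Cdkn2b, Cdkn2c, Cdkn2d, Cenpa, Csf2rb2, Ctss, Fdft1, H2-Ab1, Ier3, Ifit1, Kif11, Mcoln1, Mitf, Naglu, Naip2, Naip5, Naip6, Nlrp3, Phgdh, Pik3cb, Pnpla2, Pola1, Pttg1, Relb, Rfc2, Rsad2, Soat1, Spred1, Stat2 and Tfe3 fall outside these rules and were chosen after their values were seen. The comparison, gene lists, motifs and rules were chosen with earlier results of these data known.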

Additional observations from a re-analysis of the deposited data

How the results depend on the processing

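The totals of called genes over all genes tested kept within 1.5 times their value under every alternative run except the fold change threshold. Counts within lists moved more, with 17 of the 64 counts in 32 lists beyond 1.5 times under at least 1 alternative other than that threshold, most often those of glycolysis genes and HIF targets. At 2-fold or more, 717 genes were higher and 938 lower under CO-CM than in UNX, and 336 were higher and 276 lower under PH-CM than under CO-CM. Leaving out 1 library at a time gave between 3093 and 3293 higher and between 3327 and 3568 lower genes for CO-CM against UNX, and between 1257 and 1534 higher and between 1511 and 1852 lower for PH-CM against CO-CM. With the replicate block the calls for CO-CM against UNX were 3483 higher and 3554 lower, and among the genes named with values the block changed the calls of Ldha and Vegfa alone in that comparison. For PH-CM against CO-CM, 15 of the named genes that were not called became called with the block. DESeq2 gave 3422 higher and 3425 lower for CO-CM against UNX. The share of calls that were higher was 49.24%, against 56.35% with upper-quartile factors and 41.41% with scaling by library size alone. No such gene that was called changed direction. Ccl12, at 0 reads in 2 CO-CM libraries, had a fitted log2 fold change of -11.40 without CO-CM replicate 3, which is no bound. With 3 libraries in each group, an exact permutation test of 1 gene cannot give a p below 0.1, so single genes rest on the fit across all genes.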

Other observations

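Calls by annotated gene type are given here as counts, without a test. Of 177 lincRNA genes tested, 96 were called higher under CO-CM and 27 lower, with a median log2 fold change of 0.445. Of 135 genes annotated as antisense, 66 were higher and 10 lower, with a median of 0.423, and of 31 noncoding genes that share a bidirectional promoter, 16 were higher and 1 lower. Protein-coding genes gave 3018 higher and 3307 lower of 11080, with a median of -0.012, and processed pseudogenes gave 19 higher and 59 lower of 202, with a median of -0.209. The counting parameters given in the study's methods hold no strand option, so reads of an antisense or bidirectional gene and of an overlapping partner cannot be told apart, and reads of a processed pseudogene may come from its parent gene.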
